A study of Caenorhabditis elegans with 6 samples.

Results

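The 10 lysozyme genes described here were lys-1, lys-2, lys-4, lys-5, lys-6, lys-7, lys-8, ilys-2, ilys-3 and ilys-5, out of 23470 genes listed in either of the deposited expression tables. They were taken by gene name as protist-type (lys, 7 genes) and invertebrate-type (ilys, 3 genes) lysozymes of the gut found in both tables. They are a set list and not every lysozyme of the tables: 6 others are described further below. They were selected on a measured value, the lower level of ilys-3 with hlh-30 overexpression, so the overexpression values of all 10 are given as a description, with no p-value, and how many pass the threshold of the fit across all genes is given only beside the share of all genes that do. RNA of whole nematodes was sequenced on the first day of adulthood in hlh-30 overexpression, hlh-30 knockout and control Caenorhabditis elegans, with 2 libraries in each group.

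All 3 groups were labelled as the GMC101 background, in which the unc-54 promoter drives human amyloid-beta (Aβ) in body wall muscle and the mtl-2 promoter drives GFP in the gut. The series text names another Aβ strain, CL4176, in place of GMC101, and the genotype label of the controls is WT although they carry Aβ. Overexpression came from an hlh-30p::hlh-30::GFP transgene, a fusion under the gene's own promoter added to the endogenous copies. The knockout allele hlh-30(syb6883) lacks the first 4 exons. By the study's methods, Aβ was induced by a shift of young adults raised at 20°C to 25°C, where they stayed for 24 h. Neither the labels nor the methods say that the libraries of a group came from separate cultures, so p-values measure the spread between these samples, which may be technical. In whole worms, fewer cells of a type and less RNA per cell cannot be told apart.

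Lysozymes are secreted enzymes that cut the peptidoglycan of bacterial cell walls. In C. elegans they act in the gut, where they digest bacteria eaten as food and form part of the defence against bacteria that infect the worm. The protist-type enzymes resemble those of amoebae, and the invertebrate-type enzymes belong to the destabilase family. HLH-30 is the worm ortholog of TFEB, a transcription factor of autophagy and lysosome genes that is also known for a part in defence against infection.

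Depth was even, from 18097925 to 19300834 gene-assigned reads in a library. Values are normalized reads, the reads of a gene divided by a size factor per library, and each of the 2 tables was normalized separately with the same control libraries. The targeted gene hlh-30 stood at 6022 and 5693 normalized reads in overexpression worms, against 3102 and 3315 in controls (log2 difference 0.87 ± 0.06 SE, adjusted p = 3.97e-06, limma with Benjamini-Hochberg adjustment). In knockout worms hlh-30 had 2104 and 3005 normalized reads, against 3049 and 3258 in controls (log2 difference -0.33 ± 0.17 SE, limma adjusted p = 0.511). The value is a total over the whole gene and holds the exons that the allele keeps, so it does not check the deletion. The 2 knockout libraries stood further apart than the pairs of the other groups: 8.81% of the 15749 genes tested differed by at least 2-fold between them, against 3.12% in the overexpression pair and 3.88% in the control pair. They are named here by their order in the table, since their labels do not tell which column is which replicate, and the knockout values are given with and without each of them.

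Most of the lysozymes lie beside another one. By the gene models of WBcel235, ilys-3 (chromosome IV, 2464456 to 2465443, plus strand) is followed after 2234 bases by ilys-2 (IV, 2467678 to 2468879, plus strand) and then by ilys-1. On chromosome V, lys-1 (10277904 to 10279056, plus strand) is 1250 bases from lys-2 (10280307 to 10281474, minus strand), with lys-3 next to it. On chromosome IV, lys-4 (11621429 to 11623174), lys-5 (11624252 to 11625582) and lys-6 (11626910 to 11627947) follow each other on the minus strand, 1077 and 1327 bases apart. No other gene lies in these gaps. The genes lys-7 (V, 3481432 to 3482600), lys-8 (II, 5586178 to 5587651) and ilys-5 (X, 6533490 to 6536840) stand alone. Whether counting used the strand is not stated, and lys-8 overlaps C17G10.13 on the opposite strand, so reads of that pair could not be told apart. Outside the 10, the span of ilys-4 overlaps atic-1 on the opposite strand. That of hlh-30 overlaps F35F11.4 on the same strand and W02C12.4 on the opposite strand, so a like limit holds for these genes. Reads of similar family members are uncertain for the same lack of detail on counting.

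Divided by gene length, ilys-3 had the highest control level of the 10, at 4344 and 4282 normalized reads per kilobase. Next came lys-4, with a mean of 2861, and lys-8, with 2750 per kilobase, whose control libraries overlapped. Below them were lys-1 with 2060, lys-7 with 1220, ilys-2 with 719 and lys-2 with 336 per kilobase, each apart from its neighbours in both control libraries. The bottom 3 were lys-5 with 106 and ilys-5 with 103, which overlapped, and lys-6 with 16.2 per kilobase. The length used for ilys-5 was 1023 bases, whereas the first of its 3 transcripts in the gene models has 542. Its place beside lys-5 therefore depends on the length used. With hlh-30 overexpression ilys-3 stood at 1988 and 1591 per kilobase, below lys-1 (3485 and 4981), lys-4 (3516 and 4154) and lys-8 (3489 and 3757). In knockout worms ilys-3 had 1901 and 2803 per kilobase. In the first knockout library that was below lys-1 (7196), lys-8 (4470.5) and lys-4 (2464). In the second it was above lys-1 (1894), lys-8 (2232) and lys-4 (1455).

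**Figure D1:**
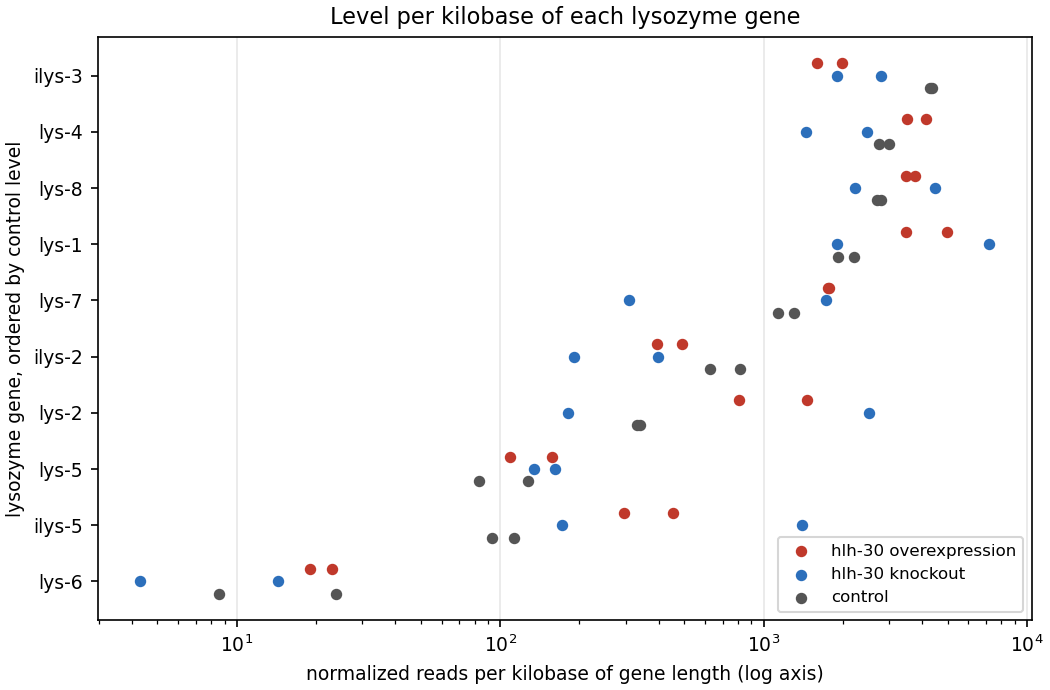
Normalized reads per kilobase of gene length (log axis) for each lysozyme, ordered from the highest control mean at the top, with 1 point per library; overexpression (red) is drawn above knockout (blue) and control (grey). The control points of ilys-3 lie at 4344 and 4282 per kilobase, to the right of all other control points, while its overexpression points lie at 1988 and 1591.

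Of the 10 lysozymes, 6 were above both controls in both hlh-30 overexpression libraries, 2 were below both controls in both libraries, and 2 overlapped. Of all 15918 genes tested, 27.9% were above and 29.4% were below in this way. At an adjusted p under 0.05 with at least a 2-fold difference, 4 of the 10 passed, 3 higher (lys-1, lys-2 and ilys-5) and 1 lower (ilys-3), and of all genes tested 1.86% passed, 1.72% higher and 0.138% lower. Since this contrast chose the genes, nothing is read from these counts. The count of 4 was 3 without the second overexpression library, where lys-1 fell under 2-fold, and 0 without either control library, with the low-value filter off, without the mean trend or with all 6 libraries in one fit. The median log2 difference of the 10 was 0.45, and that of all genes tested was -0.0016.

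Among the invertebrate-type lysozymes, ilys-3, which is made in the pharynx and gut and is known to help break down bacteria, had 946 and 757 normalized reads in overexpression worms, against 2068 and 2038 in controls. Both overexpression libraries were low and the groups did not overlap, with a log2 difference of -1.28 ± 0.10 (SE). Its tandem neighbour ilys-2 had 240 and 193 normalized reads with overexpression, against 397 and 306 in controls, again with both overexpression libraries low (log2 difference -0.69 ± 0.16 SE). The X-linked ilys-5 went the other way, at 303 and 464 normalized reads in overexpression worms, against 95.2 and 116 in controls. That was a log2 difference of 1.83 ± 0.20 (SE), the largest of the 10, with both overexpression libraries high.

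Of the protist-type lysozymes, the neighbours lys-1 and lys-2 differed most from controls. Gut lysozyme lys-1 had 3858 and 5514 normalized reads with overexpression, against 2115 and 2445 in controls (log2 difference 1.02 ± 0.12 SE). For lys-2 the values were 745 and 1356 in overexpression libraries, against 306 and 315 in controls (log2 difference 1.69 ± 0.20 SE). In both genes the second overexpression library was the higher one and the groups did not overlap. Smaller differences were seen in lys-7, a gut lysozyme required for resistance to several bacterial pathogens, with 1610 and 1629 normalized reads in overexpression worms, against 1194 and 1043 in controls (log2 difference 0.54 ± 0.08 SE). Also above both controls were lys-4, at 2545 and 3008 against 2163 and 1980 normalized reads in controls (0.42 ± 0.08 SE), and lys-8, at 3433 and 3697 against 2661 and 2752 in controls (0.40 ± 0.06 SE). The groups overlapped in the weakly expressed lys-5 (75.8 and 109 normalized reads with overexpression, against 58.2 and 89.2 in controls) and lys-6 (16.3 and 13.4, against 16.9 and 6.08 in controls).

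Summed over the 10 genes, overexpression libraries held 13774 and 16741 normalized lysozyme reads, against 11074 and 11090 in controls. The makeup of that sum differed. The share of ilys-3 was 6.87% and 4.52% of lysozyme reads with overexpression, against 18.7% and 18.4% in controls, whereas lys-1 took 28.0% and 32.9%, against 19.1% and 22.04% in controls. Since ilys-3 was chosen as low with overexpression, its lower share follows from the choice of the genes, and this raises the shares of the others. In the knockout libraries ilys-3 took 4.39% and 17.55%, and lys-1 took 38.68% and 27.57%, against the same control shares.

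**Figure D2:**
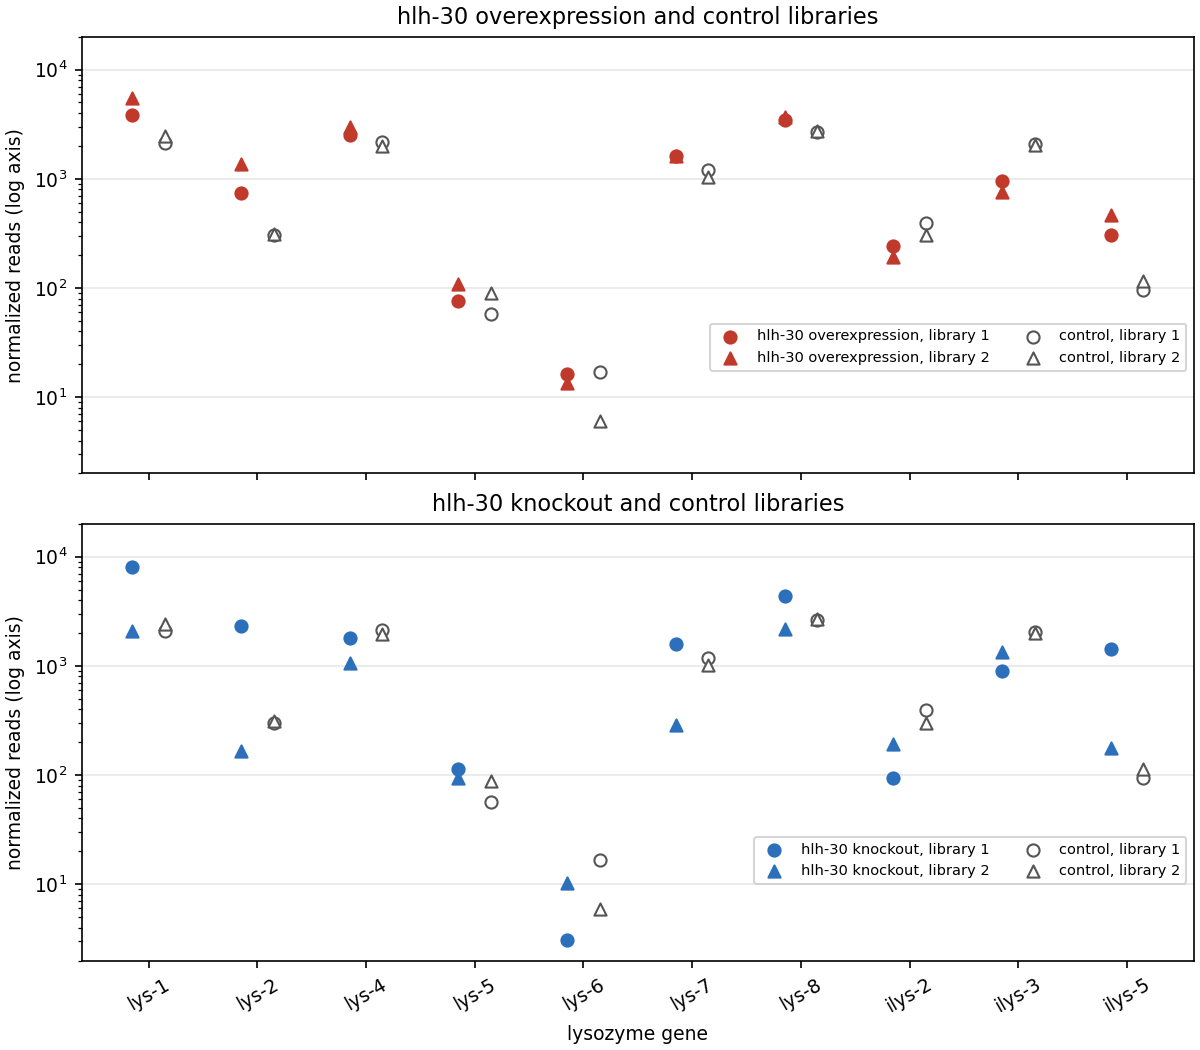
Normalized reads (log axis) of each lysozyme in every library, with hlh-30 overexpression and its controls in the upper panel and hlh-30 knockout and its controls in the lower panel; filled symbols are the 2 overexpression or knockout libraries and open symbols the 2 controls. In the upper panel ilys-3 lies below its controls (946 and 757 against 2068 and 2038) and ilys-5 above (303 and 464 against 95.2 and 116), and in the lower panel the 2 knockout libraries of lys-2 stand at 2317 and 167.

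The comparison of knockout with control, which shares its control libraries with the comparison above, was not named in the choice of the genes, although they were chosen with earlier results of these data known and the control values of ilys-3 enter both comparisons. None of the 10 lysozymes passed at an adjusted p under 0.05 with at least a 2-fold difference in limma, and 0.0127% of the 15749 genes tested did, which was 2 genes. Their adjusted p-values lay between 0.392 and 0.784 (limma, Benjamini-Hochberg), and the unadjusted p was under 0.05 for 3 of them, ilys-3, ilys-2 and ilys-5. Neither edgeR nor DESeq2 called any of the 10 at that threshold. Both knockout libraries were above both controls for 2 lysozymes and below for 3, and 5 overlapped, where 22.4% of all genes tested were above and 23.4% were below. The median log2 difference was -0.17 for the 10 and 0.0014 for all genes tested. With 2 libraries in each group an exact permutation test cannot give a two-sided p below 0.333.

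The neighbours ilys-3 and ilys-2 were below the controls in both knockout libraries. The level of ilys-3 was 905 and 1334 normalized reads in knockout worms, against 2032 and 2003 in controls, a log2 difference of -0.88 ± 0.19 (SE) with an adjusted p of 0.392 (limma). Over 8 alternative settings that kept all libraries its adjusted p lay between 0.0118 and 0.540, and DESeq2 gave the lowest. For ilys-2 the levels were 93.7 and 194 normalized reads in knockout worms, against 390 and 301 in controls (log2 difference -1.34 ± 0.36 SE, limma adjusted p = 0.398). The third gene below both controls was lys-4, with 1784 and 1053 normalized reads in knockout worms, against 2126 and 1946 in controls (log2 difference -0.57 ± 0.24 SE, limma adjusted p = 0.463). Most of that difference lay in the second knockout library: it was -0.95 without the first and -0.19 without the second.

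Above both controls were ilys-5 and lys-5. The level of ilys-5 was 1428 and 176 normalized reads in knockout worms, against 93.6 and 114 in controls (log2 difference 2.27 ± 0.89 SE, limma adjusted p = 0.447). Most of that difference lay in the first knockout library, 13.8 times the control mean, while the second was 1.70 times the control mean. The level of lys-5 was 113 and 93.5 normalized reads in knockout worms, against 57.2 and 87.7 in controls (log2 difference 0.53 ± 0.31 SE, limma adjusted p = 0.533).

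In the other 5 genes the knockout libraries fell on different sides of the controls or between them. The values of lys-2 were 2317 and 167 normalized reads in knockout worms, against 300 and 310 in controls, so that one library was far above and the other below. Likewise lys-7 had 1585 and 284 normalized reads in knockout worms, against 1174 and 1025 in controls, and lys-8 had 4399 and 2196, against 2615 and 2704 in controls. For lys-1 the first knockout library stood at 7966 normalized reads and the second, at 2097, lay between the controls (2079 and 2403). The weakly expressed lys-6 had 3.05 and 10.2 normalized reads in knockout worms, against 16.6 and 5.98 in controls, and the second library again lay between the controls. The standard error of the log2 difference reached 1.10 in lys-2, larger than its log2 difference of 1.03.

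The lysozymes thus differed between the 2 knockout libraries themselves. Differences of at least 2-fold were found in 7 of the 10 (70.0%), of which 5 were higher in the first library and 2 lower, against 8.81% of all genes tested. The pair of overexpression libraries held 0 such lysozymes and the control pair 1, lys-6. The first knockout library was above both controls in 6 of the 10 and below both in 4, whereas the second was above in 2 and below in 6. By size, the first library exceeded the second 13.9-fold in lys-2, 8.12-fold in ilys-5, 5.58-fold in lys-7, 3.80-fold in lys-1 and 2.003-fold in lys-8. The second library exceeded the first 3.33-fold in lys-6, which rests on few reads, and 2.07-fold in ilys-2. Among the 10182 genes with a mean of at least 100 normalized reads in the 4 libraries, 3.59% differed by at least 2-fold, and so did 6 of the 8 lysozymes at that level. In that ranking lys-2 was number 12, ilys-5 number 26, lys-7 number 46 and lys-1 number 84. Summed over the 10 genes, the knockout libraries held 20594 and 7605 normalized lysozyme reads, against 10883 and 10899 in controls, the first above and the second below both controls.

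**Figure D3:**
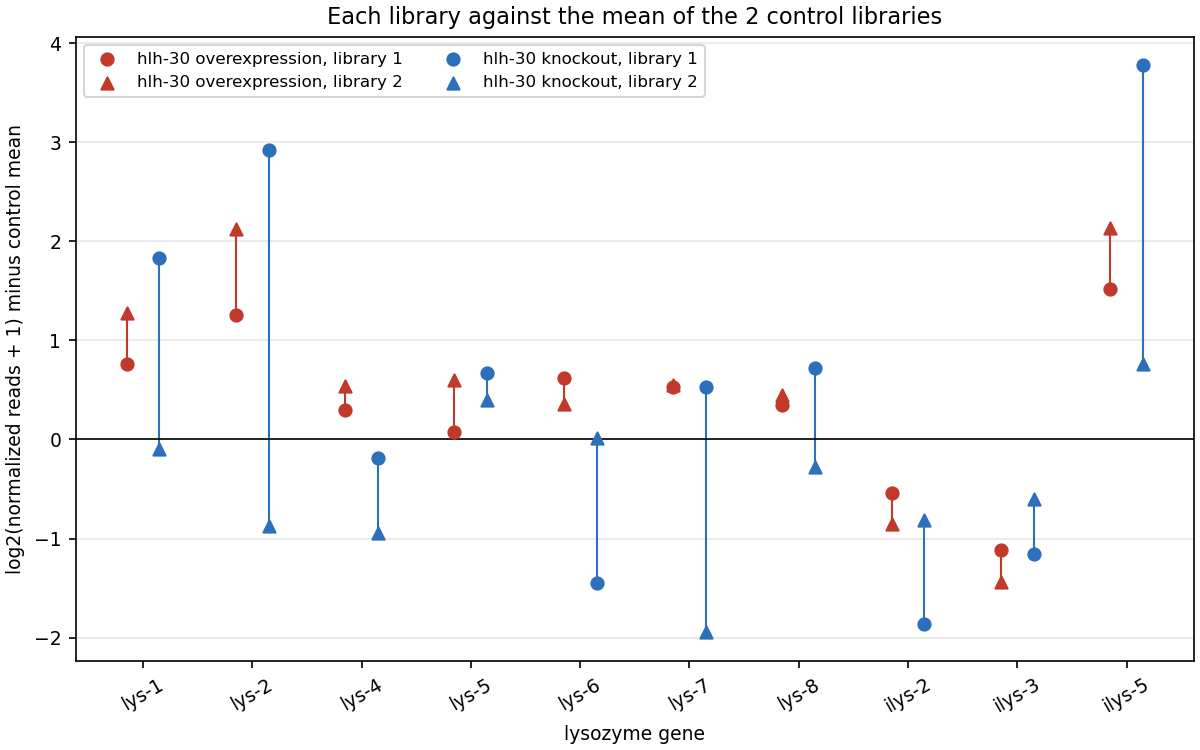
Difference of each library from the mean of the 2 controls on the scale of log2(normalized reads + 1), with overexpression (red) left of knockout (blue) for every lysozyme, 1 symbol per library, and a line joining the 2 libraries of a group. The blue lines of lys-1, lys-2, lys-7 and lys-8 cross 0, and that of lys-6 just reaches across it (-1.45 and 0.011), whereas both blue and both red symbols of ilys-2 and ilys-3 lie below 0.

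With only the second knockout library kept, the log2 difference of lys-7 from controls was -1.95. With only the first kept, the difference was 1.83 in lys-1, 2.92 in lys-2, 3.78 in ilys-5, -1.86 in ilys-2 and -1.16 in ilys-3. In these fits the single knockout library is assumed to vary like the controls, so the differences hold for that library only. The direction was the same in either library for 5 genes. With the second library alone the log2 difference was -0.95 in lys-4, 0.40 in lys-5, -0.81 in ilys-2, -0.60 in ilys-3 and 0.76 in ilys-5, and with the first alone it was -0.19 in lys-4 and 0.67 in lys-5. The sign changed with the library kept for the other 5: with the second library alone the difference was -0.092 in lys-1, -0.87 in lys-2, 0.011 in lys-6 and -0.28 in lys-8, and with the first alone it was -1.45 in lys-6, 0.53 in lys-7 and 0.73 in lys-8.

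Markers of the intestine, where most lysozymes are made, also differed between these libraries. The list held 10 genes, all of them tested, and none was at 0. In overexpression libraries their summed level was 12416 and 14943 normalized reads, against 8241 and 8926 in controls. Above both controls were 9 of the 10, where 27.9% of all genes tested were, and the median log2 difference was 0.65. Past the threshold were 2 markers, both higher, where 1.72% of all genes tested passed as higher. They were act-5, the actin of gut microvilli (2016 and 3088 normalized reads, against 1086 and 1225 in controls), and ifd-2, a gut intermediate filament (214 and 225, against 95.2 and 110). The tenth, the gut esterase gene ges-1, is named as the exception after its values were seen, with 727 and 603 normalized reads in overexpression worms, against 704 and 720 in controls. In the knockout libraries the summed level of the list was 16912 and 8605 normalized reads, against 8099 and 8772 in controls, so the first library was high and the second lay between the controls, whereas the lysozyme sum of the second library was below both controls. Both knockout libraries were above both controls for 4 of the 10 markers and below for 0, with a median log2 difference of 0.46. The lysozymes had 2 above, 3 below and a median of -0.17, and of all genes tested 22.4% were above and 23.4% below. The marker act-5 had 5216 and 890 normalized reads in knockout worms, against 1068 and 1204 in controls. Between the knockout libraries 2 of the 10 markers differed at least 2-fold, where 8.81% of all genes tested did. Levels of ilys-2 and ilys-3 lay on the opposite side from the marker sum in both overexpression libraries and the first knockout library. For ilys-3 the side with overexpression was fixed by the choice of the genes. The part of the intestinal markers in the lysozyme values was not tested.

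Markers of other tissues were examined in the same way. The 11 pharynx genes, of which 9 were tested, had a median log2 difference of 0.03 with overexpression and 0.19 in knockout worms, and they summed to 14516 and 18111 normalized reads in overexpression libraries, against 15123 and 16176 in controls. In knockout libraries the pharynx sum was 19676 and 17229 normalized reads, against 14863 and 15898 in controls. Of the 9 tested, 5 were above both controls in both knockout libraries and 0 below, where 22.4% and 23.4% of all genes tested were. With overexpression 2 were above and 0 below, where 27.9% and 29.4% of all genes tested were. The 12 germline genes had a median log2 difference of -0.10 with overexpression, where 8 were below both controls and 1 above. Of all genes tested, 29.4% were below and 27.9% above in this way. The summed germline level was 101303 and 104193 normalized reads, against 113606 and 110090 in controls. In knockout worms the germline median was -0.12, with 4 below both controls and 0 above. Of all genes tested there, 23.4% were below and 22.4% above. The germline sum was 114126 and 88386 normalized reads in knockout libraries, against 111648 and 108197 in controls, so the first library was high and the second low. The part of the pharynx and germline markers in the lysozyme values was not tested. None of either list passed the threshold in either comparison, and none of them was at 0 in every library.

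**Figure D4:**
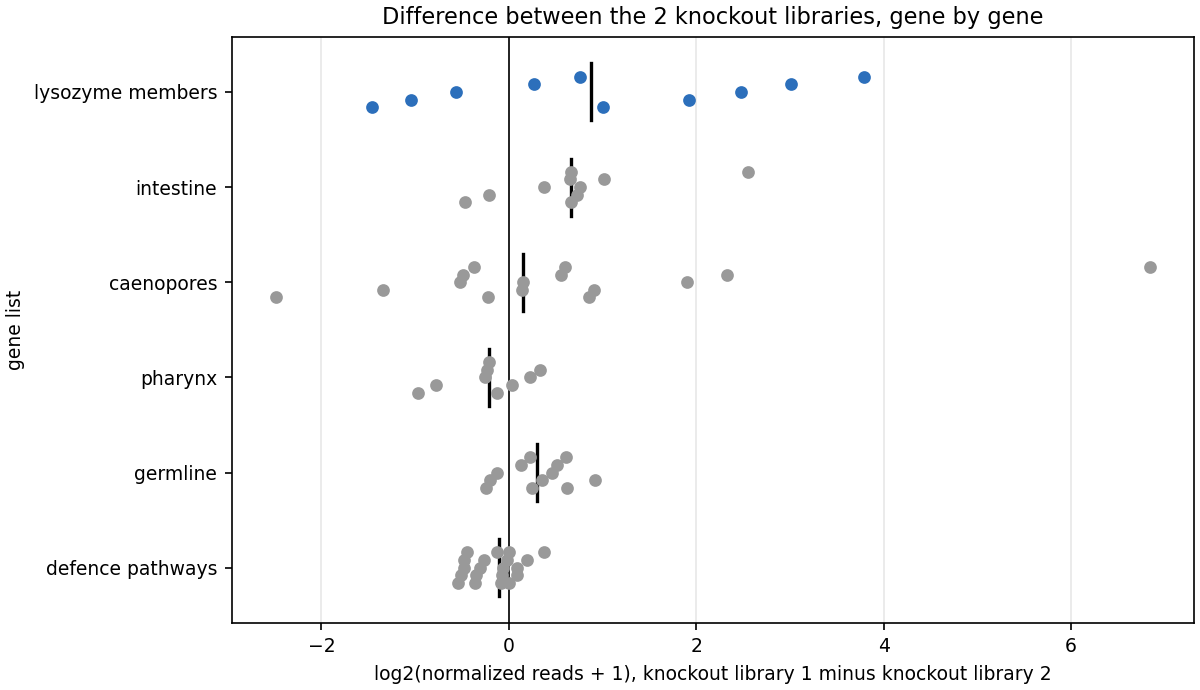
Difference between the first and the second knockout library on the scale of log2(normalized reads + 1), with 1 point per gene, for the lysozymes (blue) and 5 other gene lists (grey); black bars are medians and points to the right were higher in the first library. The lysozymes run over both sides of 0, with a median of 0.88, the intestine list has a median of 0.66 and the defence pathway list a median of -0.10.

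Other lysozymes of the tables, 6 genes, were low. Only ilys-4 exceeded 100 normalized reads, with 143 and 184 in overexpression worms, against 167 and 178 in controls, and with 120 and 186 in knockout worms, against 164 and 175 in controls. The groups overlapped in both comparisons. The remaining genes ilys-1, ilys-6, lys-3, lys-9 and lys-10 had at most 10.2 normalized reads in any library, although ilys-1 and lys-3 directly follow expressed lysozymes. No call was made among the 1 tested with overexpression and the 2 tested with knockout.

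Caenopores, encoded by the spp genes, are pore-forming proteins of the same gut defence. None of the 16 tested with overexpression and none of the 15 tested with knockout passed in limma, with median log2 differences of 0.15 and 0.21. Between the 2 knockout libraries 5 of 15 (33.3%) differed at least 2-fold, against 8.81% of all genes tested, with 3 higher and 2 lower in the first library. Of the 5, spp-4 (220 and 0.93 normalized reads) and spp-13 (8.14 and 22.2) rest on few reads in at least 1 library. Another of the 5, spp-18, had 1137 and 304 normalized reads in knockout worms, against 194 and 229 in controls. These genes are named after their values were seen.

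The list of 20 defence pathway genes held the p38 and ERK kinase modules, insulin and TGF-beta signalling, the gut GATA factor elt-2 and hlh-30. No gene of it passed in either comparison, with medians of 0.18 with overexpression and -0.04 in knockout worms, and none differed 2-fold between the knockout libraries. Below 2-fold, several had an adjusted p under 0.05 with overexpression (limma). Higher were hlh-30, elt-2, vhp-1 (log2 difference 0.46), sma-4 (0.43), atf-7 (0.28) and sma-9 (0.22), whereas mek-2 (-0.33) was lower. In knockout worms vhp-1 (0.41), atf-7 (0.39) and sma-9 (0.26) were also above both controls in both libraries, and mek-2 (-0.35) was below. The groups overlapped there in sma-4 (0.24). None of these knockout differences had an adjusted p under 0.05 (limma), and both comparisons use the same controls. Apart from hlh-30 and elt-2, these genes are named after their values were seen. Without a minimum fold, 2351 of the 15918 genes tested passed with overexpression. The gut regulator elt-2 had 552 and 650 normalized reads in overexpression worms, against 373 and 459 in controls (log2 difference 0.53, limma adjusted p = 0.0132), and 486 and 375 in knockout worms, against 367 and 451 in controls. The kinase gene pmk-1 had 416 and 370 normalized reads in overexpression worms, against 343 and 329 in controls. The insulin-pathway factor daf-16 had 4933 and 4859 normalized reads with overexpression, against 5134 and 5178 in controls.

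Genes with a pattern most like that of ilys-3 were found by the Euclidean distance of log2 differences from the control mean over 4 libraries, 2 of overexpression and 2 of knockout, among 10053 genes. The nearest was F15E11.12 at a distance of 0.73, followed by icl-1, which encodes the glyoxylate cycle enzymes (0.74), DH11.2 (0.78), sod-3, a mitochondrial superoxide dismutase (0.78), and Y48A6B.10 (0.78). Since ilys-3 was below the control mean in all 4 libraries, genes near it by this measure are low by selection, and only icl-1 had a library not below that mean, the second knockout library at 0.0028 on the log2 scale. The adjacent ilys-2 was number 29 by this measure at a distance of 1.11, while lys-4 was number 8260, lys-1 number 10006, lys-2 number 10044 and ilys-5 number 10052. The 4 libraries share the controls, so the measure is a description only.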

How the data were processed

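RNA of whole worms was sequenced as paired reads from 2 libraries in each of 3 groups. The authors deposited 1 table per comparison, of 22588 genes (overexpression) and 22380 (knockout), 21498 of them in both. The signal values deposited are reads per gene divided by a size factor per library. The gene lengths deposited by the authors gave the levels per kilobase. The submitters' processing notes name HISAT2, featureCounts and DESeq2, with versions, genome build and strand setting not given in the sources used here. The tables' columns of the authors' fold changes, p-values and group means were not used. Divided by 1 step per library, 100% of the values were whole reads (within 0.01), and 15918 and 15749 genes were tested. The count tests on those reads by edgeR 4.0.16 and DESeq2 1.42.0 were alternatives.

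Genes that reached 10 normalized reads in 2 or more of the 4 libraries of a comparison were fitted on log2(normalized reads + 1) with limma 3.58.1 in R 4.3.3, with a mean trend and Benjamini-Hochberg adjustment over all genes. Genes were called where the adjusted p was under 0.05 and the log2 difference was 1 or more in size. Fold changes of low genes are understated on this scale. The members and lists were chosen with earlier results of these data known. Named genes were the 10 lysozymes, hlh-30, the other lysozymes, called genes of the lists, at most 4 defence pathway genes and the 5 genes nearest to ilys-3 with a control mean of at least 100, and exceptions are stated beside them. One lysozyme, ilys-6, is listed by its sequence name and was matched through RefSeq. Gene positions are from the Ensembl models of WBcel235. Protein and promoter sequences were not used here. Alternatives changed the pseudocount (0.1), filter, mean trend, scaling, tool, libraries fitted, threshold and pairing.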

Additional observations from a re-analysis of the deposited data

Results flagged for a closer look

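One lysozyme lay on opposite sides of the controls in the 2 strains. The log2 difference of lys-4 was 0.42 with overexpression, where both libraries were above both controls, and -0.57 with knockout, where both were below. The knockout value was -0.95 without the first knockout library and -0.19 without the second. The difference between these effects was not tested, and both comparisons use the same control libraries. With 2 libraries in a group, no library could be examined as an outlier.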

How the results depend on the processing

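With overexpression, the log2 differences of the 10 lysozymes kept their sign under the alternatives that kept all libraries. With 1 library left out, that of lys-6 ran from -0.18 to 1.16, changing sign without the second control, and that of lys-5 from 0.03 to 0.64; with 2 libraries a group, such a change cannot exceed the replicate spread and says nothing of stability. Of all genes, 296 were called with overexpression, and 0 without the low-value filter, 3 without the mean trend, 180 with DESeq2, 11 with all 6 libraries in one fit, 2351 without a minimum fold and 533 at an unadjusted p. Leaving out 1 library gave between 0 (either control left out) and 429 (the first overexpression library left out), and 198 without the second. With knockout, 2 genes were called, and 1 without the filter, 0 without the mean trend, 58 with DESeq2 and 306 at an unadjusted p. Leaving out 1 library gave between 0 (either control) and 533 (the second knockout library), and 507 without the first. Of the lysozymes, 0 were called with knockout, 2 at an unadjusted p with at least 2-fold, and between 0 and 5 with 1 library left out. Without a minimum fold DESeq2 called 1 of them, ilys-3. The log2 difference of knockout changed sign with the library left out, running from -0.092 to 1.83 in lys-1, -0.87 to 2.92 in lys-2, -1.45 to 0.011 in lys-6, -1.95 to 0.53 in lys-7 and -0.28 to 0.73 in lys-8. The cause was not tested. The rank of ilys-3 by control level was 1 per kilobase and 4 without division by length. With the replicate block, 365 genes were called with overexpression. For each gene, replicate 1 minus replicate 2 was taken in overexpression and in control. These differences correlated at r = 0.0273 over 15918 genes, so no effect shared by same-numbered libraries was seen. No paired analysis was possible for knockout because its columns carry no replicate number that the labels settle.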
